A study of Mus musculus with 30 samples.

Results

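Hearts of vehicle-instilled mice killed on day 28 were compared with hearts of vehicle-instilled mice killed on day 3, across the mouse microRNAs (miRNAs) of an array. All samples labelled as control heart tissue of these days were taken, 4 from day 28 and 6 from day 3, which makes 10 of the 30 samples of the series. The donors were female C57BL/6 mice, bought at 5 to 6 weeks of age, and each gave its own RNA from a random section of the heart that held both ventricles. They had received 40 µl of vehicle into the trachea, followed by 150 µl of air. The vehicle was saline in which 10% of the volume was cell-free lung lavage fluid from mice of the same strain. The other mice of the series received Printex 90, a carbon black of nanosized particles, at 162 µg in this vehicle, and a further vehicle group of 4 was killed on day 1. Day 28 mice were 25 days further from the instillation and also older than day 3 mice, so that time since instillation and age cannot be told apart, and no untouched mice were compared.

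MiRNAs are short RNAs that are cut from hairpin precursors and guide Argonaute proteins to messenger RNAs. Pairing runs mainly through the seed, bases 2 to 8 of the mature miRNA, so miRNAs with one seed can share targets. In the heart, miR-1 and miR-133 are abundant in muscle cells, and miR-208a, miR-208b and miR-499 lie inside the genes of myosin heavy chains. The rodent ventricle uses the fast myosin of Myh6 in adult life and the slow myosin of Myh7 before birth, and the switch between them follows age, thyroid hormone and load. The miR-29 family represses transcripts of collagens and other matrix proteins and is plentiful in fibroblasts. MiR-144 and miR-451 are made from one precursor in developing red cells.

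The sequences on which the comparison turns are those of the miRNAs furthest apart between the days and of their close relatives. They were read from RefSeq (GRCm38.p6) and are given 5′ to 3′ with the seed in capitals. Of the 306 miRNAs tested, 150 were matched to a RefSeq mature miRNA, 62 by the name on the array and 88 by the arm. The pair from the cardiac myosin genes has one seed and 3 differing bases, which are G10A, A16G and C18U from miR-208a to miR-208b, counted from the 5′ end.
miR-208a-3p: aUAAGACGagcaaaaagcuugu
miR-208b: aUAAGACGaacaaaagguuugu
MiR-208b lies at chr14:54975710-54975731 on the minus strand, within the spans of Myh7 and the non-coding gene Gm31251, and miR-208a-3p at chr14:54949072-54949093 on the same strand, within Myh6.

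The 3 miR-29 main strands share the seed AGCACCA. MiR-29a and miR-29c differ by 1 base (C10U, from miR-29a to miR-29c), and miR-29b differs from miR-29a by C10U, G18A, U21G and A22U over the 22 bases compared. The other strand of the miR-29c hairpin, named miR-29c* on the array, has a seed of its own.
miR-29a: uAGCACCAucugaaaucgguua
miR-29b: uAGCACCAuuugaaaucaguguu
miR-29c: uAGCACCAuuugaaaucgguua
miR-29c*: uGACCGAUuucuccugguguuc
MiR-29b has 2 copies. One stands beside miR-29c (chr1:195037600-195037621, plus strand), at chr1:195037091-195037113 within the span of the long non-coding gene A330023F24Rik, and the other beside miR-29a (chr6:31062673-31062694, minus strand), at chr6:31063025-31063047.

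The miRNAs from red cells come from one locus on chromosome 11, with miR-144 at chr11:78073047-78073066 and miR-451 at chr11:78073186-78073207, both on the plus strand. They share no seed with each other. MiR-301a and miR-130a have one seed and 10 differing bases over the 22 compared. MiR-10a and miR-10b, from the Hoxb and Hoxd regions, differ by U12A alone.
miR-144: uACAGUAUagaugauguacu
miR-451: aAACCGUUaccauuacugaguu
miR-301a: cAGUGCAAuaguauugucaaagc
miR-130a: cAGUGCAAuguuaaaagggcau
miR-10a: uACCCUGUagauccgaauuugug
miR-10b: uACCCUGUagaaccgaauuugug

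The array held probes for 1079 mouse miRNAs, of which 357 gave a signal above background in 1 or more of these 10 hearts and 219 in every one. Values below are log2 of the scaled signal, and probes of different miRNAs do not rank their amounts. The share of spots well above background, which measures how bright an array was, averaged 23.5% ± 3.58 (SD, n = 6) on day 3 and 24.5% ± 1.81 (n = 4) on day 28, and the difference did not pass (exact permutation p = 0.619, two-sided). The labelled tissue bore its markers, with all 5 heart muscle miRNAs (miR-1a, miR-133a, miR-133b, miR-208a-3p and miR-499) detected on all 10 arrays. Of 28 miRNAs listed for other tissues, 6 were detected on any of the 10, among them miR-122 of liver, and those of pancreas and the miR-200 family of epithelium were not detected on any. One heart, day 3 replicate 5, stood apart from the other 5 of its group. It was highest in miR-199a-3p of fibroblasts (10.66, against 9.67 to 9.93) and miR-143 of smooth muscle (10.52, against 9.81 to 10.04), and lowest in miR-208a-3p (8.39, against 8.77 to 8.97). The differences of the leading miRNAs are also given without it.

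Between day 3 and day 28, 2 of the 306 tested miRNAs passed the threshold (adjusted p under 0.05 in limma), which is 0.654% of those tested. MiR-208b was lower on day 28 and miR-29b was higher, each in all arrays of one day against all arrays of the other. At an unadjusted p under 0.05 there were 11 higher and 11 lower (3.59% each way), where 15.3 in all were expected by chance. The groups did not overlap for 2 miRNAs that were higher on day 28 (0.654%) and for 7 that were lower (2.29%). The higher ones were miR-22 and miR-29b, and the lower ones were miR-142-5p, miR-144, miR-144*, miR-181c, miR-208b, miR-301a and miR-451.

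The median difference over all 306 was 0.10, with 232 (75.8%) higher on day 28. Scaled on all probes, the median was −0.028 with 128 (41.8%) higher, and 52.6% were higher by the values of the deposited series table. Under the main scaling but without the 2 dimmest vehicle arrays (chosen after seeing the data), the median was −0.031 with 131 (42.8%) higher. A direction near 0 therefore depends on the scaling and on the arrays included, and differences are best read against the median of all miRNAs. The 95% interval of the difference lay within 2-fold in either direction for 279 of the 306, and within 1.5-fold for 171.

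**Figure D1:**
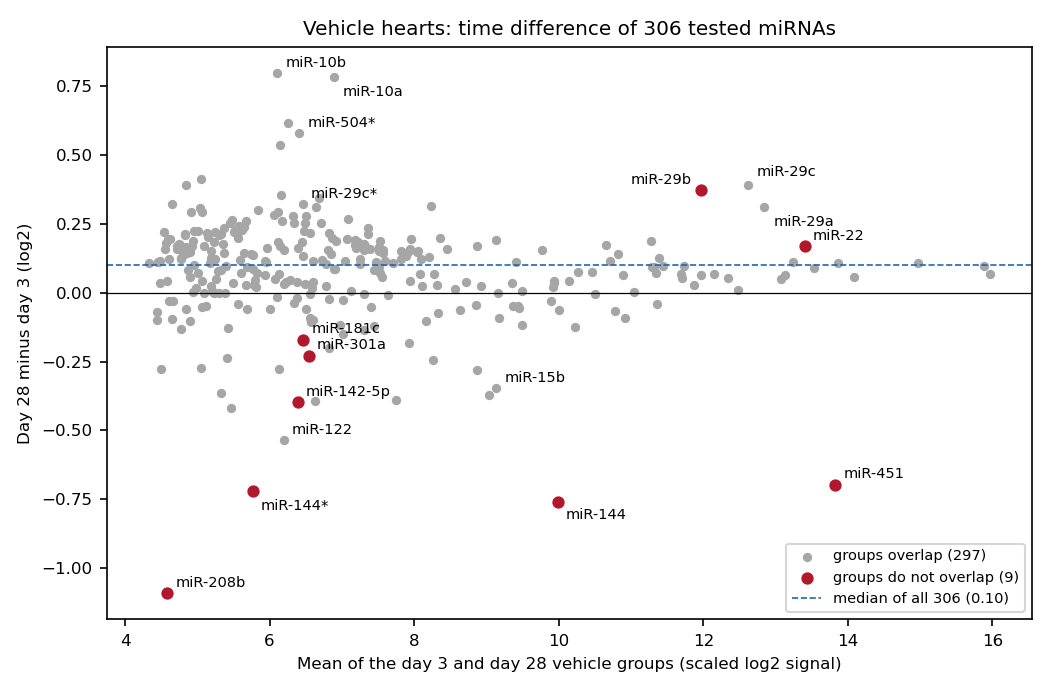
Difference between vehicle hearts of day 28 and day 3 (log2, vertical) against the mean of both groups (scaled log2 signal, horizontal), 1 point per tested miRNA. Red points are the 9 miRNAs whose 2 groups of arrays do not overlap, and the dashed line is the median of all 306 at 0.10. MiR-208b lies lowest at −1.09 with its day 28 group at or near the floor, so that its rank is not measured. The miR-29 members lie above the band of abundant miRNAs, and miR-144 and miR-451 lie well below it.

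MiR-208b, carried by the slow myosin gene, was the one miRNA that passed on the lower side. On day 3 its values were 5.48, 5.28, 5.02, 4.78, 4.90 and 5.31, and on day 28 they were 4.10, 4.02, 4.02 and 4.02, where 4.02 is the floor set at the lowest detected signal. Every day 28 heart lay below every day 3 heart. It was detected on 5 of 6 day 3 arrays and was not well above background on any of the 4 day 28 arrays. In the main processing the day 3 mean was therefore at least 1.54-fold above the day 28 level, a bound without sampling error. Differences in the deposited series table and with normexp background correction, given below, were smaller than this bound. Group means were 5.13 ± 0.27 (SD, n = 6) and 4.04 ± 0.04 (n = 4), with an adjusted p of 8.82e-05 in limma. The day 28 values of 4.02 are the floor itself, so the floor narrows the day 28 SD and enters this p. The bound sets the day 3 mean against the higher of the lowest detected signal and the probe's own signal on each day 28 array. Its 2 probes gave −1.09 and −1.09.

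The day 1 hearts of the vehicle group, which enter neither mean but share the scaling and the pooled spread of the fit, stood at 5.39, 5.51, 5.14 and 5.31, with miR-208b detected on 4 of 4 arrays. These lay among or above the day 3 values, and day 3 minus day 1 was −0.21 (adjusted p = 0.494). The Printex 90 hearts, another set of mice, stood at 5.46, 4.71, 5.01 and 5.49 on day 3 and at 4.03, 4.03, 4.02, 4.70 and 4.17 on day 28. There the highest day 28 heart lay just below the lowest day 3 heart, and miR-208b was detected on 4 of 4 day 3 arrays and 0 of 5 day 28 arrays. The adjusted p in Printex 90 hearts was 0.00093 in limma. The fitted differences, −1.09 in vehicle and −0.98 in Printex 90 hearts, are set by the floor on the day 28 side, so their sizes cannot be compared.

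Within the 3 slides that held both groups, miR-208b was lower on day 28, with differences of −1.28, −1.003 and −1.09 against values at or near the floor. In that order the slides held 2 day 3 arrays and 1 day 28 array, 1 and 2, and 2 and 1. These are arrays of the main comparison. Without day 3 replicate 5 the difference was −1.14 (adjusted p = 1.05e-04). The size depends on how signals near background are treated, as it was −0.43 in the deposited series table (adjusted p = 0.00399), −0.41 with normexp background correction (adjusted p = 0.206), and −2.94 with the scanner software's total gene signal. With no scaling between arrays it was −0.84 and did not pass.

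The other miRNAs of the muscle list did not pass, and 1 of 9 passed in all, against the 0.654% of all tested. MiR-208a-3p, from the fast myosin gene, ran from 8.39 to 8.97 on day 3 with a median of 8.82, and stood at 9.09, 8.96, 8.94 and 8.82 on day 28. Its groups overlapped, and the difference was 0.17 ± 0.11 (adjusted p = 0.894), or 0.09 without day 3 replicate 5, the lowest heart. It shares its seed with miR-208b but the values lay on opposite sides of 0. MiR-499, from the myosin gene Myh7b, was at 11.18 ± 0.21 on day 3 and 11.37 ± 0.06 on day 28, a difference of 0.19, or 0.11 without that heart. The abundant muscle miRNAs differed little, with miR-1a at 0.07 ± 0.07 (95% interval −0.08 to 0.22), miR-133a at 0.11 ± 0.10 and miR-133b at 0.11 ± 0.10, all turning below 0 when scaled on all probes. The skeletal muscle miRNA miR-206 was near the floor in both groups, at a highest value of 5.20 on day 3 and 5.03 on day 28.

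MiR-29b was higher on day 28. It measured 11.86, 11.52, 11.89, 11.74, 11.93 and 11.75 on day 3 and 12.20, 11.97, 12.21 and 12.23 on day 28. The lowest day 28 heart, replicate 2, lay 0.04 above the highest day 3 heart. The difference was 0.37 ± 0.09 (SE; 1.29-fold; 95% interval 0.19 to 0.56; adjusted p = 0.0455 in limma), and 0.27 above the median of all miRNAs. The call is a narrow one. It was kept in 11 of 27 other tested fits and was lost in 7 of the 10 that leave out 1 array, all except those without day 3 replicate 3, day 3 replicate 5 or day 28 replicate 2. Scaled on all probes the difference was 0.24 (adjusted p = 0.986), and the direction was the same in every alternative run.

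The rest of the family lay to the same side without passing. MiR-29c measured 12.43, 12.20, 12.44, 12.27, 12.69 and 12.54 on day 3 and 12.72, 12.63, 12.80 and 13.13 on day 28. The groups touched at the top of day 3, where replicate 5 was highest. The difference was 0.39 ± 0.10 (adjusted p = 0.073). The opposite strand of its hairpin, miR-29c*, was at 6.30 ± 0.13 and 6.62 ± 0.18, a difference of 0.32 ± 0.08 (adjusted p = 0.073). MiR-29a, 1 base away from miR-29c, was at 12.68 ± 0.22 and 12.99 ± 0.21, a difference of 0.31 ± 0.11 (adjusted p = 0.274), and its opposite strand miR-29a* at 0.29 ± 0.22. With slide as a block, miR-29c and miR-29c* passed beside miR-29b, at 0.42 and 0.36. Without day 3 replicate 5 they passed as well, with an adjusted p of 0.019 for each of these 3 strands. Over all fits without 1 array, the difference ran down to 0.29 for miR-29c and 0.24 for miR-29c*. The adjusted p in limma ran up to 0.371 and 0.346.

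Whether probes of these near-identical members bind each other's target was not tested. Within the 3 slides, each with 1 or 2 arrays of a group, miR-29b was 0.51, 0.21 and 0.39 higher on day 28. In day 1 vehicle hearts miR-29b averaged 11.62 ± 0.15 (n = 4), and day 28 minus day 1, which uses the same day 28 arrays, was 0.53 (adjusted p = 0.00166). In Printex 90 hearts, miR-29b was higher on every day 28 array than on every day 3 array. The share of all miRNAs without overlap there was not counted. MiR-29b was at 11.72 ± 0.15 (n = 4) on day 3 and 12.01 ± 0.09 (n = 5) on day 28. That difference was 0.29 ± 0.09 (adjusted p = 0.276), and it differed from the vehicle one by −0.08 (95% interval −0.34 to 0.18).

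The fibroblast and matrix list had 10 tested members, 9 higher and 1 lower on day 28, with 1 past the threshold (miR-29b). Of all tested miRNAs, 75.8% were higher and 0.327% passed on the higher side. Its median was 0.19, against 0.10 for all tested miRNAs, and its 5 miR-29 members held the 5 highest places. The others were near 0. MiR-21, which is induced in fibroblasts and under cardiac stress, was at 10.51 ± 0.13 on day 3 and 10.51 ± 0.12 on day 28, a difference of −0.00 with a 95% interval of −0.23 to 0.23. MiR-199a-3p was at 0.03 ± 0.17 and miR-214 at 0.07 ± 0.18, and both sat high in day 3 replicate 5 and in day 28 replicate 4 (miR-214 at 6.83 and 6.63, with the other day 3 hearts at 6.04 or lower). Without day 3 replicate 5 they were at 0.18 and 0.22, and neither passed.

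**Figure D2:**
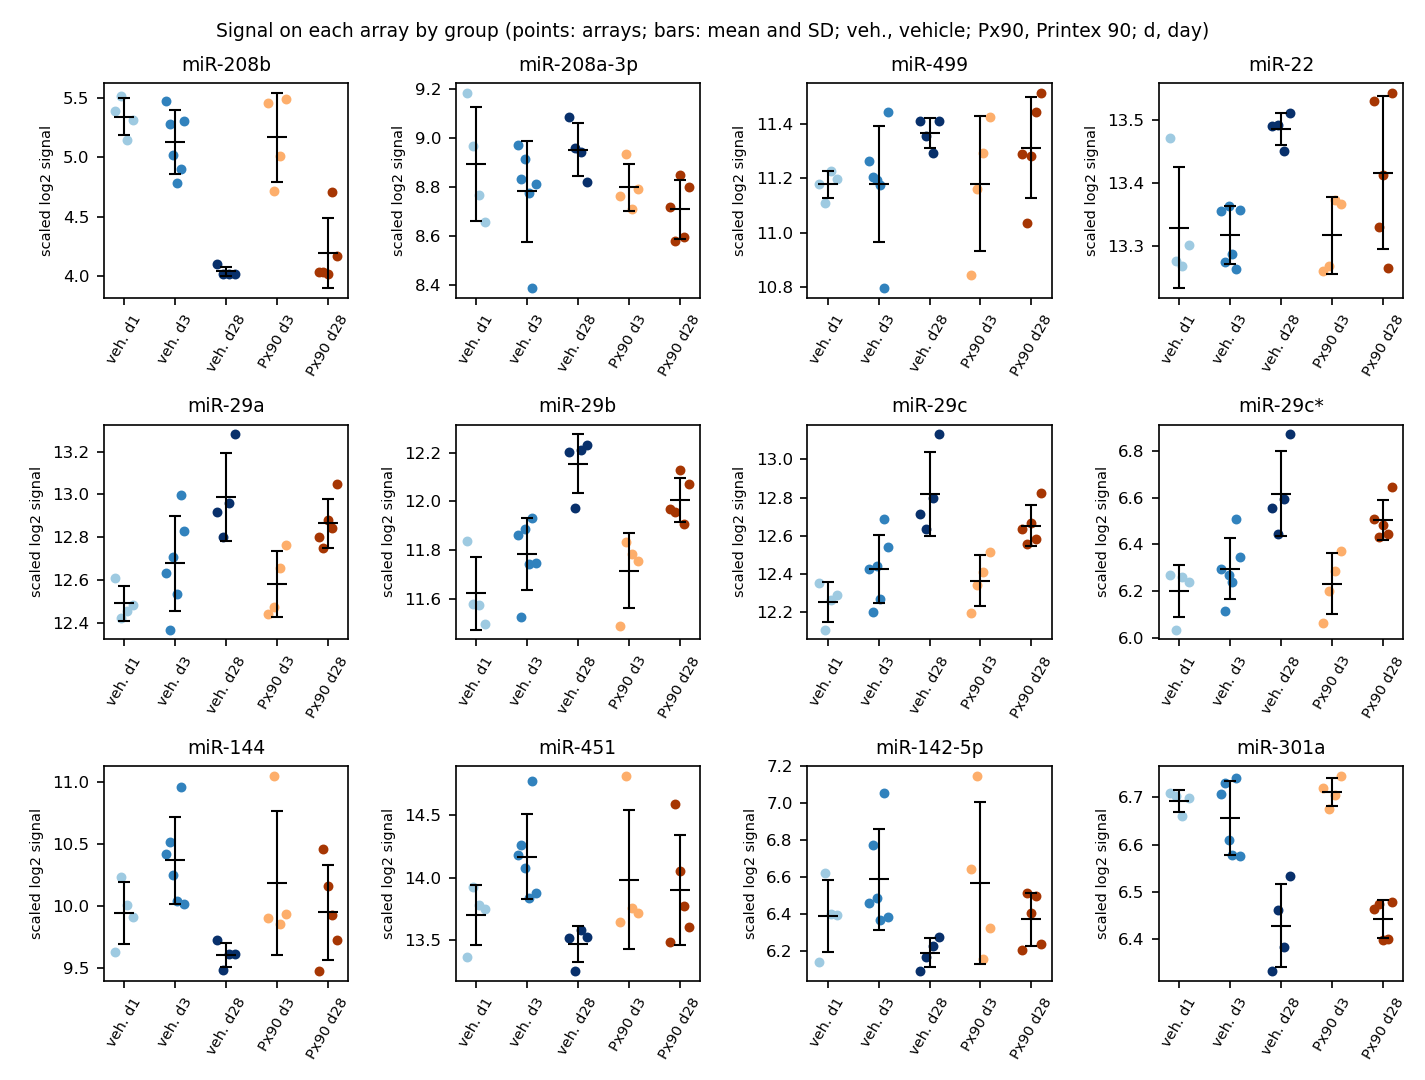
Scaled log2 signal on each array for 12 miRNAs in vehicle hearts of days 1, 3 and 28 and Printex 90 hearts of days 3 and 28 (points are arrays, bars are the mean and SD; vertical axes differ and do not start at 0). MiR-208b sits at or near the floor of 4.02 in the vehicle day 28 hearts, and the miR-29 strands have higher means on day 28 than on day 3 in both treatments. MiR-144 and miR-451 are low in vehicle day 28 hearts but spread widely in Printex 90 hearts.

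The miRNAs of red cells were lower on day 28 without passing. MiR-451, the most abundant miRNA of red cells, measured 14.18, 14.26, 14.08, 13.83, 14.77 and 13.88 on day 3 and 13.52, 13.26, 13.58 and 13.53 on day 28. All 4 day 28 hearts lay below all 6 day 3 hearts, and replicate 5 was the highest. The difference was −0.70 ± 0.24 (SE; adjusted p = 0.274), which is a 1.62-fold higher mean on day 3. MiR-144 was at 10.37 ± 0.35 and 9.61 ± 0.10, a difference of −0.76 ± 0.24 (adjusted p = 0.236). Its opposite strand, miR-144*, was at 6.13 ± 0.39 and 5.41 ± 0.06, a difference of −0.72 ± 0.26. The fourth listed miRNA, miR-486*, was at 0.13.

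The summed level of miR-451 and miR-144, the red cell markers tested, ran from 13.94 to 14.87 on day 3 (median 14.23) and from 13.36 to 13.67 on day 28 (median 13.62). In sections of whole tissue, fewer cells of a type and less RNA per cell cannot be told apart, and the blood left in a section was not measured. Without day 3 replicate 5 the difference was −0.58 for miR-451, −0.64 for miR-144 and −0.60 for miR-144*, and within the slides miR-451 was at −0.70, −0.66 and −0.80. Day 1 vehicle hearts lay between, with miR-451 at 13.71 ± 0.24 (n = 4). In Printex 90 hearts miR-451 differed by −0.08 ± 0.25 between the days, with values from 13.65 to 14.81 on day 3 and from 13.48 to 14.59 on day 28. The difference between the treatments was 0.61, with a 95% interval of −0.10 to 1.33 (unadjusted p = 0.089, adjusted p = 0.993).

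The leukocyte list had 7 tested members, 2 higher and 5 lower, with a median of −0.06 and 0 past the threshold in limma (1 at an unadjusted p under 0.05), against 0.654% past the threshold and 3.59% lower at an unadjusted p under 0.05 among all tested. The strands of the miR-142 hairpin, made in blood-forming cells, were lowest. MiR-142-5p measured 6.46, 6.77, 6.49, 6.36, 7.06 and 6.38 on day 3 and 6.09, 6.17, 6.23 and 6.28 on day 28. The groups did not overlap, day 3 replicate 5 again being highest, and the difference was −0.40 ± 0.16 (adjusted p = 0.403) and −0.30 without replicate 5. MiR-142-3p was at −0.37 ± 0.18 (−0.30 without replicate 5) and overlapped. MiR-223, of myeloid cells, was at 0.07 ± 0.10, and miR-150, of lymphocytes, at 0.05 ± 0.18. The summed level of miR-142-3p, miR-142-5p, miR-150 and miR-223 ran from 9.83 to 10.40 on day 3 and from 9.72 to 9.98 on day 28, which overlap.

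Several miRNAs of growth clusters lay to the lower side, though none passed. The miR-17 clusters, which drive cell division in many tissues, had 9 tested members, 9 lower and 0 higher, with a median of −0.10 against 0.10 for all tested, and 2 at an unadjusted p under 0.05, where 3.59% of all tested were lower at that p. MiR-106b was at −0.25 ± 0.10 (adjusted p = 0.403), or −0.19 without day 3 replicate 5, its highest heart, and its locus partners miR-93 and miR-25 at −0.20 and −0.18. MiR-19a was at 7.10 ± 0.08 and 6.95 ± 0.10, a difference of −0.15 ± 0.06, or −0.12 without that heart. In the miR-15/16 family, whose members restrain the cell cycle, 5 of 7 were lower, and miR-15b was at 9.31 ± 0.27 and 8.96 ± 0.16, a difference of −0.35 ± 0.13 (adjusted p = 0.318), or −0.25 without day 3 replicate 5, its highest heart. MiR-16, which stands beside miR-15b on chromosome 3 and also has a copy on chromosome 14, was at −0.09 ± 0.07, and miR-195 at −0.03 ± 0.11.

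MiR-301a measured 6.71, 6.73, 6.61, 6.58, 6.74 and 6.57 on day 3 and 6.33, 6.46, 6.38 and 6.53 on day 28. The day 28 hearts lay below all day 3 hearts, by 0.04 at the nearest. The difference was −0.23 ± 0.08 (adjusted p = 0.274). In Printex 90 hearts, where the share of all miRNAs without overlap was not counted, the miR-301a groups did not overlap either. There miR-301a was at 6.71 ± 0.03 (n = 4) on day 3 and 6.44 ± 0.04 (n = 5) on day 28, a difference of −0.27 ± 0.08 (adjusted p = 0.276). Its seed relative miR-130a was at −0.13 ± 0.09 in vehicle hearts. MiR-181c, the last of those without overlap on the lower side, was at 6.55 ± 0.08 and 6.38 ± 0.03, a difference of −0.17 ± 0.08, while its seed relatives ranged up to 0.03 (miR-181d).

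On the higher side, miR-22, a muscle miRNA tied to cardiac growth, measured 13.35, 13.27, 13.36, 13.29, 13.26 and 13.36 on day 3 and 13.49, 13.49, 13.45 and 13.51 on day 28. The groups did not overlap, but the difference was only 0.17 ± 0.06 (adjusted p = 0.274), 0.07 above the median of all miRNAs, and it was 0.04 when scaled on all probes. MiR-10b had the highest difference of all, at 0.80 ± 0.28 (adjusted p = 0.274). It measured 5.82, 4.73, 5.71, 5.35, 6.56 and 6.07 on day 3 and 6.28, 6.12, 6.72 and 6.91 on day 28, so that day 3 ran from 4.73 to 6.56 and the groups overlapped. Without day 3 replicate 5, its highest day 3 heart, the difference was 0.97 (adjusted p = 0.099). MiR-10a followed at 0.78 ± 0.38 with a wider spread, from 5.01 to 7.47 on day 3. In Printex 90 hearts miR-10b was at −0.15 ± 0.29, and it alone had an unadjusted p under 0.05 for the difference between treatments (−0.94; adjusted p = 0.993 in limma).

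Of the other lists, the miR-30 family, abundant in heart muscle, had 11 of 11 members higher with a median of 0.12, close to the 0.10 of all miRNAs, and 0 past the threshold in limma (1 at an unadjusted p under 0.05, where 3.59% of all tested were higher at that p). MiR-30d* was at 0.32 ± 0.12, though at −0.010 in the deposited series values, and miR-30a at 0.10 ± 0.07. MiR-101c was at 9.04 ± 0.08 and 9.23 ± 0.12, a difference of 0.19 ± 0.07, and miR-101a, with nearly the same sequence, at 0.15 ± 0.06. Among all tested, 75.8% were higher, which is the share to set beside the counts of this paragraph. The let-7 family, which accumulates as tissues mature, had 7 of 9 higher with a median of 0.03. The endothelial list had 9 of 11 higher with a median of 0.07, and miR-126-3p of endothelial cells was at 0.09 ± 0.08 (95% interval −0.08 to 0.26). Inflammation-induced miRNAs had 4 of 5 higher with a median of 0.11, miR-146a at 0.25 ± 0.17 and miR-155 at 0.11 ± 0.09. For cardiac stress and growth, 8 of 12 were higher with a median of 0.07. MiR-208b, already counted in the muscle list, passed on the lower side, where 0.327% of all tested passed. For hypoxia and p53, 4 of 5 were higher (miR-210 at 0.04 ± 0.09, miR-34a at 0.11 ± 0.08). In energy metabolism 5 of 9 were higher, and miR-122 was at −0.53 ± 0.73, with values from 4.40 to 7.91 on day 3 and from 4.03 to 7.15 on day 28.

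**Figure D3:**
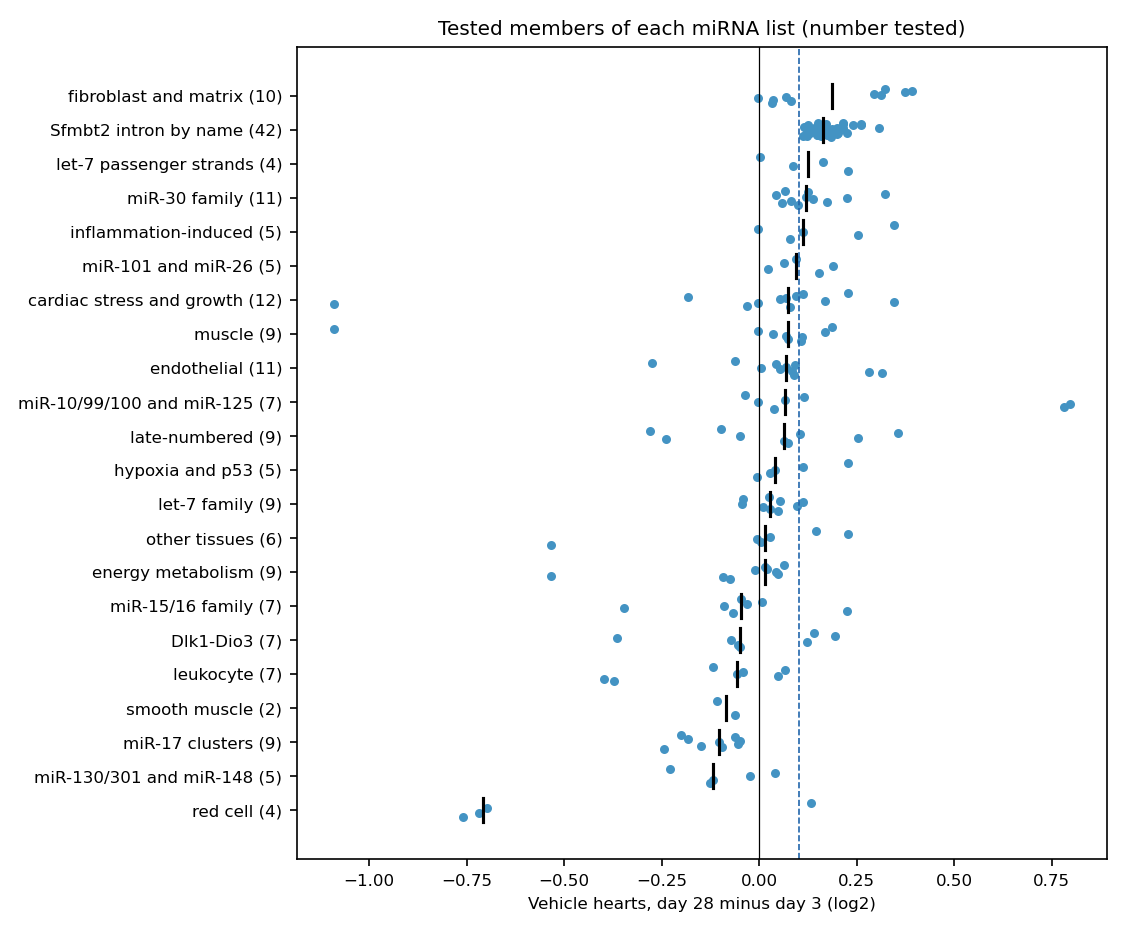
Difference between vehicle hearts of day 28 and day 3 (log2, horizontal) of each tested member of 22 miRNA lists, with the number tested in brackets; black bars are list medians, the solid line is 0 and the dashed line the median of all 306. The red cell list has 3 of its 4 members near −0.7 and the miR-17 clusters lie wholly below 0, while the 5 miR-29 strands form the upper end of the fibroblast and matrix list.

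Members of one seed or one precursor were compared as well. Of the 8 seeds shared by at least 3 tested and matched miRNAs, 3 had all members on one side of 0. The miR-29 seed had 3 of 3 higher, with differences from 0.31 to 0.39. MiR-30a, miR-30c and miR-30e had 3 of 3 higher from 0.10 to 0.14, and miR-106b, miR-20a, miR-20b and miR-93 had 4 of 4 lower from −0.25 to −0.05. Of all tested, 75.8% were higher with a median of 0.10, so the miR-30 values lay close to those of all miRNAs. MiR-30a was at −0.033 when scaled on all probes. By position, the 3 tested strands of the miR-144 and miR-451 locus ranged from −0.76 to −0.70. The locus of miR-29b and miR-29c on chromosome 1 ranged from 0.32 to 0.39. Strands of one hairpin share their precursor and are not independent.

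Printex 90 hearts gave the same time comparison in other mice, with 5 arrays from day 28 and 4 from day 3. No array enters the means of both comparisons, but they come from one fit and share its scaling, filter and spread. Fitted on the 10 vehicle arrays alone, miR-29b no longer passed (adjusted p = 0.227) and miR-208b did. In Printex 90 hearts, 1 of 306 miRNAs passed (0.327%), and it was miR-208b. The time difference had the same sign in both treatments for 239 of 306 miRNAs (78.1%). The median difference was 0.10 in both treatments, and 75.8% were higher in vehicle hearts, so this share does not test single miRNAs. Across the 306 the correlation was 0.55 (Pearson) and 0.64 (Spearman). It is given as a description, since miRNAs are not independent and the arrays share slides and differ in brightness. The difference between the treatments in the time difference passed for no miRNA (0 of 306, or 0%, in limma, with a smallest adjusted p of 0.993 and 1 at an unadjusted p under 0.05).

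**Figure D4:**
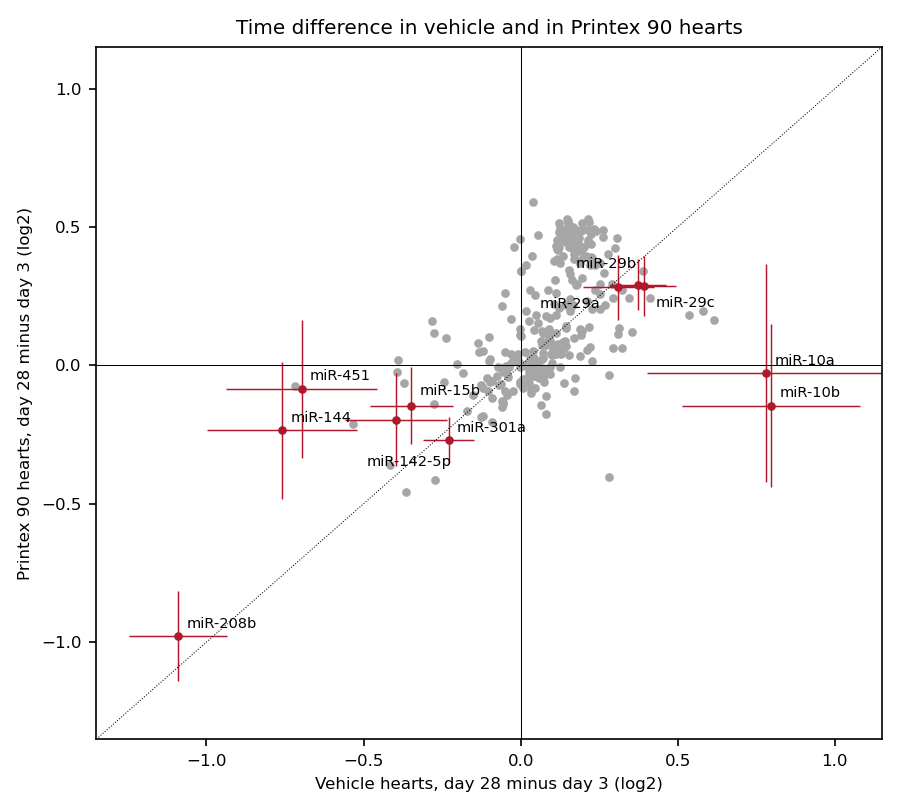
Time difference (day 28 minus day 3, log2) in Printex 90 hearts against that in vehicle hearts for 306 miRNAs, with SE bars for 11 of them; the dotted line marks equal differences. MiR-208b lies low in both (−1.09 and −0.98, not well above background in either day 28 group) and the miR-29 members high in both, whereas miR-144, miR-451, miR-10a and miR-10b lie further from 0 in vehicle hearts and have SE bars that reach 0 in Printex 90 hearts, differences between treatments that did not pass.

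The leading values were set beside every alternative way of processing. MiR-208b passed in 24 of the 26 other fits that tested it, all except no scaling and normexp, and miR-29b in 11 of 27. MiR-29c and miR-29c* passed in 7 of 27 each, and miR-144, miR-144*, miR-451 and miR-301a in 1 of 27 each, the fit with array weights. MiR-10b passed in 0 of 27 in limma, although its unadjusted p lay under 0.05 in the main fit.

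**Figure D5:**
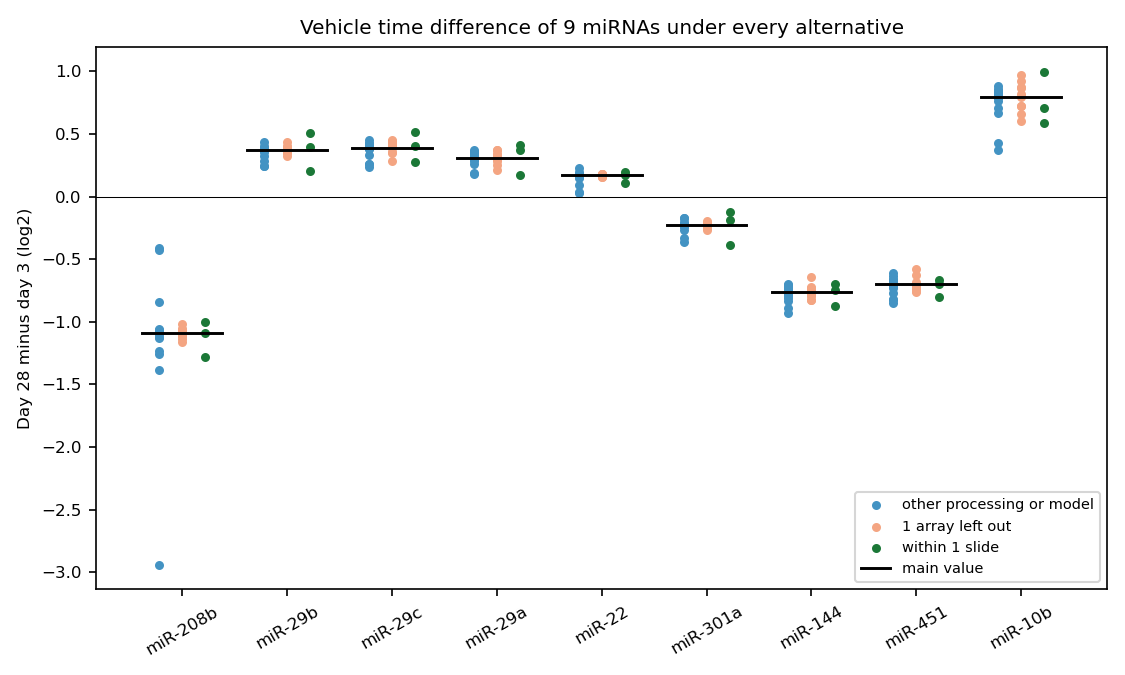
Vehicle time difference (log2) of 9 miRNAs under each alternative way of processing or fitting, with 1 array left out, and within single slides; black bars are the main values. The sign is the same throughout for these 9, while the size for miR-208b runs from −2.94 to −0.41.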

How the data were processed

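Feature Extraction 10.7.3.1 read the authors' scans, per the file headers, and the deposited files give background-subtracted signal intensity on a linear scale with flags per spot. A deposited series table gives log2 values, with its scaling unstated, and was an alternative. Signals were averaged over unflagged spots and divided by each array's 75th percentile over the 413 probes that every array detected, then raised to a floor of 16.2 (4.02 in log2). A miRNA was tested where at least 1 probe was detected on 4 or more arrays of a group, which left 306 miRNAs and 620 probes. The groups on 29 arrays (1 Printex 90 file held no signal) were fitted in limma 3.58.1 under R 4.3.3, with p-values adjusted by Benjamini and Hochberg over 306. On simulated data for this comparison with 306 miRNAs, 77.5% of log2 changes of 1 and 55.0% of changes of 0.5 were recovered. The simulated noise was independent for each value, with no shift shared by an array or slide, so recovery on the real arrays may differ. At the floor lay 1.90% of values, and the number of arrays limits precision. Alternatives changed scaling, background, signal, floor, filter, model and arrays. Named miRNAs were those with the smallest p in each direction, in each list, a fixed set, the largest differences and those without overlap. Members and lists were chosen with earlier results of these data known.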

Additional observations from a re-analysis of the deposited data

Results flagged for a closer look

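Among the 77 named miRNAs, 154 groups of values were examined for an array set apart from the rest of its group, and 14 were found, where chance would give about 7.7 (1 in 20). Day 3 replicate 5 gave 7 of them. It was the highest of its group in miR-143 (10.52), miR-145 (7.16), miR-199a-3p (10.66), miR-214 (6.83) and miR-7a (5.12), and the lowest in miR-208a-3p (8.39) and miR-34a (9.19). Its share of spots well above background was 23.8%, inside the range of its group. Day 3 replicate 1 was low in miR-5126 (7.99, the others from 8.95 to 9.43).

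On day 28, replicate 1 was low in miR-145 (6.32) and miR-146a (6.39, the others from 6.94 to 7.02) and was the only day 28 heart above the floor for miR-208b (4.10). Replicate 2 was low in miR-144* (5.31) and miR-29b (11.97, the others from 12.20 to 12.23), and replicate 4 was low in miR-1895 (5.53).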

How the results depend on the processing

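No paired analysis was possible because the hearts of the 2 days came from different mice. Replicate numbers were given in accession order and pair no hearts. The count of miRNAs past the threshold, 2 in the main fit, was 0 with no scaling and with normexp, 1 scaled on all probes, with quantile normalization, the brightest probe, the series table, only miRNAs detected on all arrays, only the 10 vehicle arrays, or without the 2 dimmest arrays (chosen after seeing the data), 4 with total gene signal, slide as a fixed or random block or scan day as a block (added later), and 10 with array weights, whose fit did not converge. Where 1 passed it was miR-208b, except among miRNAs detected on all arrays, where miR-208b was not tested and miR-29b passed. Leaving out 1 array gave 1 to 4. MiR-208b passed in each of these, and day 3 replicate 5 or day 28 replicate 2 left out gave 4. Non-overlapping miRNAs, 9 in the main setting, numbered 4 scaled on all probes and in the series table, 0 with no scaling, 23 without the 2 dimmest arrays, and 9 to 17 leaving out 1 array. The median difference was −0.028 scaled on all probes and −0.031 without the 2 dimmest. The share of spots well above background differed by −0.010 to 1.81 leaving out 1 array. The interaction count was 0 in every leave-out.

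Comparisons within single slides aside, the sign turned in the differences below, and the cause was not tested. Most were near 0 in the main fit, but miR-5117 (0.36), miR-30d* (0.32), miR-669b (0.31), miR-669m-3p (0.26) and miR-122 (−0.53) were larger. Scaled on all probes, the values were let-7b* −0.046, let-7d −0.035, let-7f −0.020, let-7g −0.080, miR-126-3p −0.042, miR-133a −0.025, miR-133b −0.023, miR-155 −0.020, miR-199a-3p −0.098, miR-1a −0.062, miR-210 −0.092, miR-214 −0.064, miR-223 −0.064, miR-26b −0.037, miR-27a −0.040, miR-299* −0.0100, miR-30a −0.033, miR-30c-2* −0.012, miR-34a −0.020, miR-378 −0.11, miR-378b −0.068 and miR-99a −0.016. In the series table, the values were let-7d −0.018, let-7f −0.0073, let-7g −0.060, miR-126-3p −0.045, miR-133a −0.044, miR-133b −0.044, miR-155 −0.034, miR-199a-3p −0.100, miR-1a −0.057, miR-210 −0.035, miR-214 −0.0067, miR-223 −0.16, miR-27a −0.0095, miR-30a −0.012, miR-30d* −0.010, miR-378 −0.060, miR-378b −0.029 and miR-5117 −0.025. With quantile normalization, the values were let-7b* −0.041, let-7g −0.033, miR-133a −0.061, miR-210 −0.072 and miR-214 −0.027. With normexp, the values were let-7b* −0.0021, miR-21 0.0044, miR-210 −0.0069, miR-214 −0.0032, miR-299* −0.023 and miR-434-3p −0.0071. With no scaling, the values were miR-195 0.030, miR-21 0.059 and miR-299* −0.0011. With total gene signal, the values were miR-195 0.00083 and miR-21 0.027. With slide as a fixed block, the values were miR-195 0.0067 and miR-21 0.0018. With slide as a random block, the values were miR-21 0.00013. With scan day as a block, the values were miR-195 0.0046 and miR-21 0.017. With a brightness covariate, the values were miR-21 0.020. With array weights, the values were miR-199a-3p −0.0025. Without the 2 dimmest arrays, the values were let-7b* −0.011, let-7d* −0.048, miR-199a-3p −0.028, miR-214 −0.027, miR-299* −0.100, miR-34b-3p −0.10, miR-434-3p −0.020, miR-467b* −0.060, miR-669b −0.058 and miR-669m-3p −0.11.

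Leaving out 1 array turned let-7d (−0.028 to 0.17), let-7g (−0.052 to 0.12), miR-122 (−0.95 to 0.098), miR-143 (−0.11 to 0.035), miR-195 (−0.15 to 0.054), miR-199a-3p (−0.15 to 0.18), miR-21 (−0.058 to 0.044), miR-210 (−0.022 to 0.081), miR-214 (−0.089 to 0.22) and miR-378 (−0.015 to 0.060). Of 82 results, 47 were not counted as turned. That count leaves out the comparisons within single slides, where some turned, as miR-504* did (−0.51 on slide 1, against 0.58 in the main fit). It also takes in counts, which have no direction, and the median difference, which fell below 0 as given above.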

Other observations

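MiRNAs named for the intron cluster of Sfmbt2, a large repeat of near-identical hairpins, made up 42 of the tested miRNAs. Of these, 42 of 42 were higher on day 28 with a median of 0.16, where 75.8% of all tested were higher with a median of 0.10. In limma 0 passed the threshold (0 at an unadjusted p under 0.05), against 0.654% of all tested. Members so alike are not independent. The list's median signal was 5.93 and 6.21 in the 2 dimmest vehicle hearts (day 3 replicates 4 and 6, with 18.4% and 20.2% of spots well above background), below the other 8, which ran from 6.41 to 7.49. Among those 8 it did not follow the order of the shares, as day 28 replicate 1 had a median of 7.23 at 23.2% and day 28 replicate 4 one of 6.73 at 25.2%. The part of array brightness in the list's difference was not tested. Without those 2 arrays, the difference of miR-669b, the list's member with the highest one, was −0.06, against 0.31 with them. In Printex 90 hearts the median of the list was 0.47.

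When miRNAs of low detection were not filtered out, miR-1892 passed beside miR-208b, at a difference of 0.28 (adjusted p = 0.00143 in limma over 1079 miRNAs). It was detected on 0 of 6 day 3 arrays and 3 of 4 day 28 arrays, with means of 4.12 and 4.40 near the floor, and on 4 of the 29 arrays in all. Of the 7 tested miRNAs of the imprinted Dlk1-Dio3 cluster, 3 were higher and 4 lower, with a median of −0.05.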
